A study of Mus musculus with 2 samples.

Results

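The 10 genes described here are the period genes Per1, Per2 and Per3, the cryptochrome genes Cry1 and Cry2, the clock activator genes Arntl (also called Bmal1), Clock and Npas2, and the repressor genes Bhlhe40 and Bhlhe41 (DEC1 and DEC2). They were chosen by name, and each was found by its Ensembl identifier among the 55573 genes of the deposited tables, so that 10 of 10 were measured. RNA-seq had been performed on mesenteric arteries, the resistance vessels of the intestine, from wild type C57BL/6 mice 10 weeks of age. A control library was made from arteries kept in 5 mM K+. A depolarized library was made from arteries in 60 mM K+, which opens voltage-dependent Ca2+ channels, and the labels give 60 min in solution for both. Each library pooled tissue of 2 mice, so neither the spread between animals nor any replicate error can be obtained, and no p-value is given. The supplementary methods describe control tissue as the distal part of a ligated first-order artery, taken before the remainder was perfused with high K+. By that description K+, perfusion, arterial segment and time in solution cannot be told apart. The hour of the day at which arteries were collected, which matters for clock genes, is not given in the sources used here. The control library held 10480918 reads on genes and the depolarized library 11289598.

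The molecular clock is a feedback loop of transcription that runs in nearly all cells, vascular smooth muscle and endothelium included. BMAL1, paired with CLOCK or NPAS2, binds E-boxes and drives the period and cryptochrome genes, whose proteins return to the nucleus and inhibit this pair. DEC1 and DEC2 compete at the same E-boxes, REV-ERB proteins (Nr1d1, Nr1d2) repress Arntl through ROR elements (ROREs), and the D-box factors DBP, TEF, HLF and their antagonist NFIL3 form a further arm. Besides this rhythm, Per1 is known as an early response gene of Ca2+, cAMP and CREB in neurons, and Bhlhe40 is induced by many stimuli, hypoxia among them.

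The promoters of these genes show which of those elements lie close to the starts. RefSeq promoter sequences on GRCm38.p6, from 250 bases before to 50 bases after each annotated start, were held for 8 of the 10 genes, all but Per2 and Bhlhe40. Exact copies of the E-box CACGTG, the full CRE TGACGTCA, the short CRE motif TGACG (contained in the full CRE), the D-box TTATGTAA and the RORE core AGGTCA were searched on both strands. The E-box was found in Per1, Cry1 and Bhlhe41, 3 of 8 genes, and in 8.09% of all 27025 genes with a promoter. The D-box was found in 1 gene, Per3, which holds 2 copies, and in 1.11% of all genes. The RORE core was found in Per1, Arntl and Clock (18.1% of all genes) and the short CRE motif in Per1, Cry1 and Cry2 (23.0% of all genes). A full CRE was found in 0 of 8 genes and in 2.03% of all genes. A match describes the letters and not a site in use. The sequences below are shown because they hold the E-box, D-box or RORE of genes whose read counts are compared afterwards; they run 5′ to 3′ on the strand of the gene, with the motifs in capitals. They lie at chr11:69098699-69098998 (plus strand, the first of 2 annotated Per1 starts), chr4:151044616-151044915 (minus strand), chr10:85185005-85185304 (minus strand) and chr7:113207261-113207560 (plus strand, the second of 2 annotated Arntl starts).
Per1: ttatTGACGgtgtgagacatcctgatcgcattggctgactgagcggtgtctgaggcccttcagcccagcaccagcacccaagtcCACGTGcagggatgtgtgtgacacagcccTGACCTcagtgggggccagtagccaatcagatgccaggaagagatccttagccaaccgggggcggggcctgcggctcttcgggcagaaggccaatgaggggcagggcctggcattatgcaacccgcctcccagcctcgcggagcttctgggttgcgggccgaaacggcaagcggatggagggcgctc
Per3: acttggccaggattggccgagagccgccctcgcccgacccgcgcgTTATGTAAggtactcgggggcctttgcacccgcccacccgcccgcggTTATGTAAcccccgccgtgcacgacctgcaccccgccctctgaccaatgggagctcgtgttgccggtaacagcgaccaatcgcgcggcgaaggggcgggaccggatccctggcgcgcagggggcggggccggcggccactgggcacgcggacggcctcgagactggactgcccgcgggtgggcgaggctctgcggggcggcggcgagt
Cry1: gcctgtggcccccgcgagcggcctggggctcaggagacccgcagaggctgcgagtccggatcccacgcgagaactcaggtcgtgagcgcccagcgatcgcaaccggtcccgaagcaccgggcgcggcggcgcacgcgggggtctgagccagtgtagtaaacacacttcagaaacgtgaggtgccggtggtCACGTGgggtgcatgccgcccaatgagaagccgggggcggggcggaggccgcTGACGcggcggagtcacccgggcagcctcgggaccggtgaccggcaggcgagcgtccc
Arntl: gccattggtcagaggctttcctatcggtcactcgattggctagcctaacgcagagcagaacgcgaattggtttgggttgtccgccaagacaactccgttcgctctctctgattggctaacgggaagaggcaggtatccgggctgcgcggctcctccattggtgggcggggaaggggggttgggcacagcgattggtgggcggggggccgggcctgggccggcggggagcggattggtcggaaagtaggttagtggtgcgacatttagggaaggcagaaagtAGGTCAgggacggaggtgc
In Per1 the capitals mark, in order, the short CRE motif, the E-box and a RORE core on the opposite strand. The D-boxes of Per3 begin 205 and 158 bases before the start. In Cry1 the E-box begins 60 bases before the start and is followed by a short CRE motif at 8 bases. The RORE core of Arntl begins at base 32 of the transcript.

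**Figure D1:**
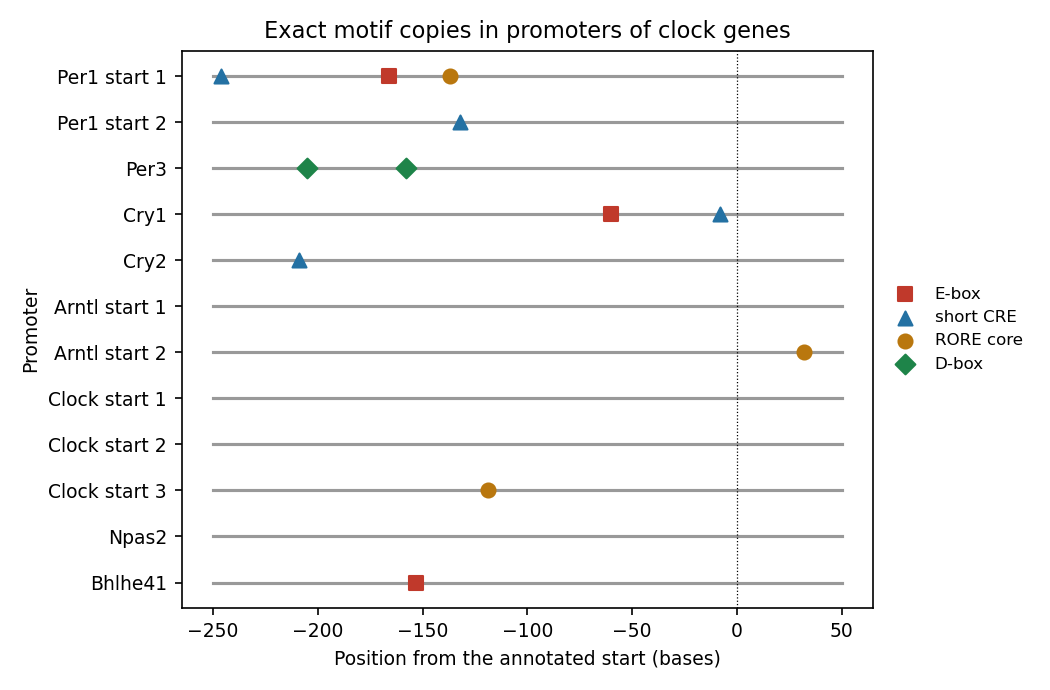
Positions of exact motif copies (symbols) in the 12 promoters held for 8 of the genes, with bases from the annotated start on the x axis and each promoter on its own line. The 2 D-boxes are both in Per3, and the E-boxes are in Per1, Cry1 and Bhlhe41.

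Levels were compared between genes as FPKM, which is scaled by gene length and total reads, with exact 95% Poisson intervals that cover counting error only. In control arteries Bhlhe40 was the highest of the 10 genes at 306 FPKM (298 to 314), above 97.9% of the 14829 genes with at least 10 reads over both libraries. Per1 followed at 217 FPKM (213 to 222). Cry2 at 60.7 and Per2 at 57.6 FPKM came next, and their intervals overlapped. Per3 stood at 29.5 FPKM, above Cry1 at 21.9 and Bhlhe41 at 21.4, which did not differ beyond counting error. All 3 activator genes were at the low end: Clock had 10.3 FPKM, near the middle of all genes, Npas2 had 1.10 and Arntl had 0.545 (0.305 to 0.900), with overlapping intervals for the last pair. Per1 thus exceeded Arntl by 398 times per length in control arteries (exact interval 241 to 712) and by 134 times in depolarized arteries (97.8 to 190). With 60 mM K+ the first 4 ranks were kept by Bhlhe40, Per1, Cry2 and Per2, while Per3 moved below Cry1 and Bhlhe41, and Arntl and Npas2, whose intervals again overlapped, exchanged the last places.

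**Figure D2:**
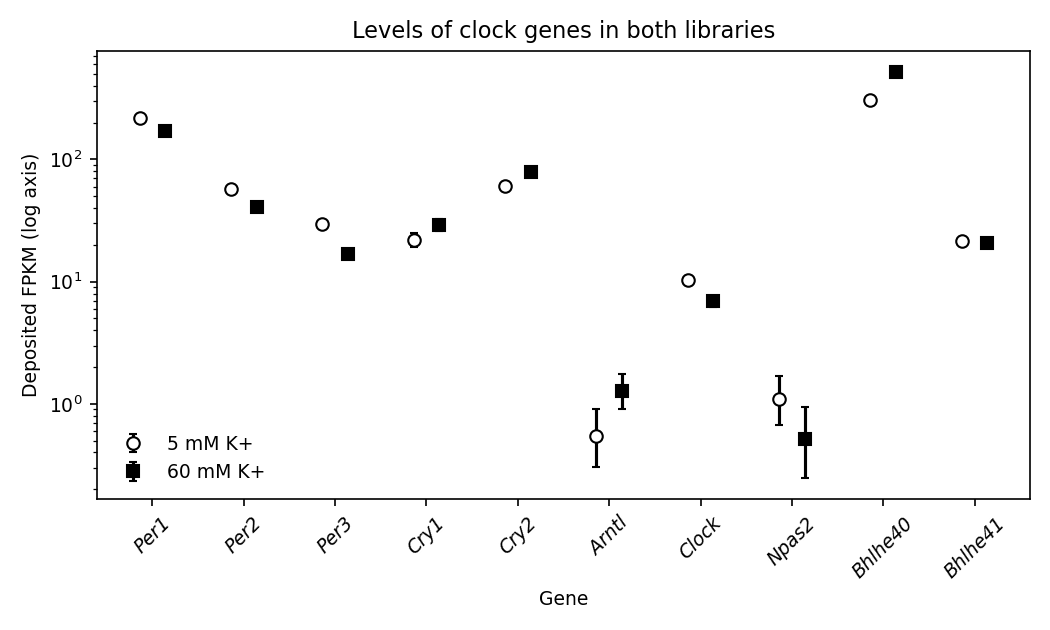
Deposited FPKM (log axis) of the 10 genes in the 5 mM K+ library (open circles) and the 60 mM K+ library (filled squares), with exact 95% Poisson intervals of the counts as bars. Bhlhe40 and Per1 were the highest in both libraries, and Arntl and Npas2 the lowest.

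The comparison of both libraries asked which clock genes differed after sustained depolarization. Read counts were brought to one scale with the TMM factors of edgeR (a trimmed mean over genes). The log2(fold-change) is the 60 mM K+ over the 5 mM K+ value, and each has an exact 95% (Clopper-Pearson) interval for counting error. In bulk tissue, fewer cells of a type and less RNA per cell cannot be told apart.

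All 3 period genes had fewer reads in the depolarized library. Per1 (chromosome 11, 68908719 to 68923462 on NCBIM37, mm9), the most abundant of them, had 7903 reads in 5 mM K+ and 6756 in 60 mM K+. The log2(fold-change) of Per1 was -0.12 (-0.17 to -0.078), which is a 1.09-fold lower level, and with the trend of fold change on gene length removed it was -0.018. With total-count scaling it was -0.33 and with smooth muscle genes setting the scale -0.35. The value of Per1 was below 0 under each of these settings, by an amount that depended on the processing. No interval was computed with the length trend removed, and at -0.018 no direction is given for that setting. Per2 (chromosome 1, 93312561 to 93355907) had 1829 and 1409 reads, a log2(fold-change) of -0.27 (-0.38 to -0.17). Per3 (chromosome 4, 150377761 to 150418774), the member of the family least needed for rhythm, differed most among the period genes. It had 1296 control and 799 depolarized reads. This gave a log2(fold-change) of -0.60 (-0.73 to -0.47), a 1.51-fold lower level. The order Per1, Per2, Per3 held for the level and, in reverse, for the size of the difference, and Per1 made up 71.4% of the summed FPKM of the family in control arteries and 74.8% in depolarized arteries.

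Both cryptochrome genes, which encode the main inhibitors of the CLOCK-BMAL1 pair, had more reads with 60 mM K+. Cry1 (chromosome 10, 84594447 to 84647799) had 236 and 338 reads, a log2(fold-change) of 0.62 (0.38 to 0.87). Cry2 (chromosome 2, 92243803 to 92274200) had 1360 and 1894 reads, a log2(fold-change) of 0.58 (0.48 to 0.68). The levels were 1.54-fold and 1.49-fold higher, a pair of values that overlapped within counting error. Cry2 was 2.77 times (2.41 to 3.20) as abundant per length as Cry1 in control arteries and 2.70 times (2.40 to 3.04) in depolarized arteries. These ratios rest on the lengths implied by the deposited FPKM, 1029 bases for Cry1 and 2139 for Cry2. An error in such lengths would change the ratios and the order of levels, and the intervals do not cover it. The long noncoding gene D930015M05Rik lies within Cry2 on the opposite strand. It had 37 and 19 reads, and reads could have been divided between the overlapping genes since no source used here says that strand entered the counting.

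The 3 activator genes did not share a direction. Clock (chromosome 5, 76639992 to 76733817) had 528 reads in 5 mM K+ and 382 in 60 mM K+, a log2(fold-change) of -0.37 (-0.56 to -0.17). Arntl (chromosome 7, 120350979 to 120457636) had only 15 control reads and 38 depolarized reads. Its log2(fold-change) was 1.44, the largest of the 10 genes, with a wide interval of 0.55 to 2.41. For Npas2 (chromosome 1, 39250576 to 39420079), which can replace CLOCK as the partner of BMAL1, the counts were 20 and 10 reads, and the log2(fold-change) of -0.90 had an interval that included 0 (-2.16 to 0.26). A difference in Npas2 was thus not detectable at this depth. Per length, Clock exceeded Arntl by 18.9 times (11.3 to 33.9) in control arteries and by 5.39 times (3.85 to 7.73) in depolarized arteries, so that Clock was the prevailing activator transcript in both.

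Among the DEC genes, Bhlhe40 (chromosome 6, 108610623 to 108616919) had 5274 reads in 5 mM K+ and 9612 in 60 mM K+. This was a log2(fold-change) of 0.97 (0.92 to 1.02), or 1.96-fold, and its interval was the narrowest among the members that were higher. The value of Bhlhe40 was 0.76 with total-count scaling and 0.74 with smooth muscle scaling, both below that interval. Bhlhe41, on the same chromosome from 145806763 to 145814078, had 565 and 592 reads. The log2(fold-change) of Bhlhe41, 0.17 with an interval from just above 0 to 0.34, turned to -0.040 with total-count scaling and to -0.059 when smooth muscle genes set the scale, so no direction is given. Per length, Bhlhe40 exceeded Bhlhe41 by 14.3 times (13.1 to 15.6) in control arteries and by 24.9 times (22.9 to 27.1) in depolarized arteries.

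**Figure D3:**
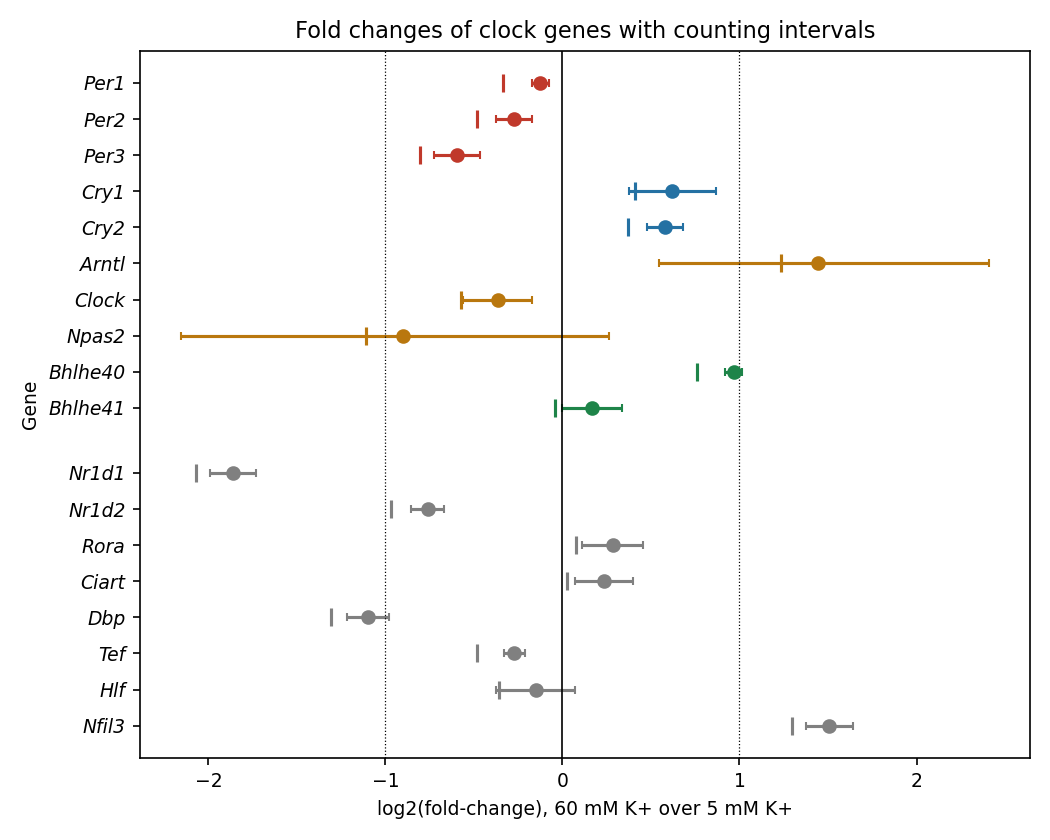
log2(fold-change) of the 10 genes (colored by family) and of 8 further clock genes (gray), TMM-scaled, with exact 95% counting intervals as bars. Short vertical ticks give the values with total-count scaling, which are lower by 0.21 for every gene, and dotted lines mark -1 and 1. The period genes and Clock lie below 0, and both cryptochromes, Arntl and Bhlhe40 lie above 0.

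Because scaling shifts every gene alike, differences between genes are free of it. The fold changes of 12 fixed pairs were compared by the exact conditional interval of the ratio of their counts, and 8 of the 12 intervals excluded 0. Per3 was lower than Per1 by 0.47 on the log2 scale (interval of Per1 minus Per3 0.33 to 0.61) and lower than Per2 by 0.32 (0.16 to 0.49). Per1 and Per2 differed by 0.15 (0.038 to 0.26). Cry1 minus Cry2 was 0.040, with an interval of -0.22 to 0.31. Bhlhe40 and Bhlhe41 differed by 0.80 (0.62 to 0.97). Arntl exceeded Clock by 1.81 (0.89 to 2.80) and Npas2 by 2.34 (0.81 to 3.91), and Per1 minus Arntl was -1.57 (-2.54 to -0.67). The intervals of Cry1 and Cry2 against Arntl, and of Clock against Npas2, included 0. These intervals speak of the 2 libraries and not of the animals.

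**Figure D4:**
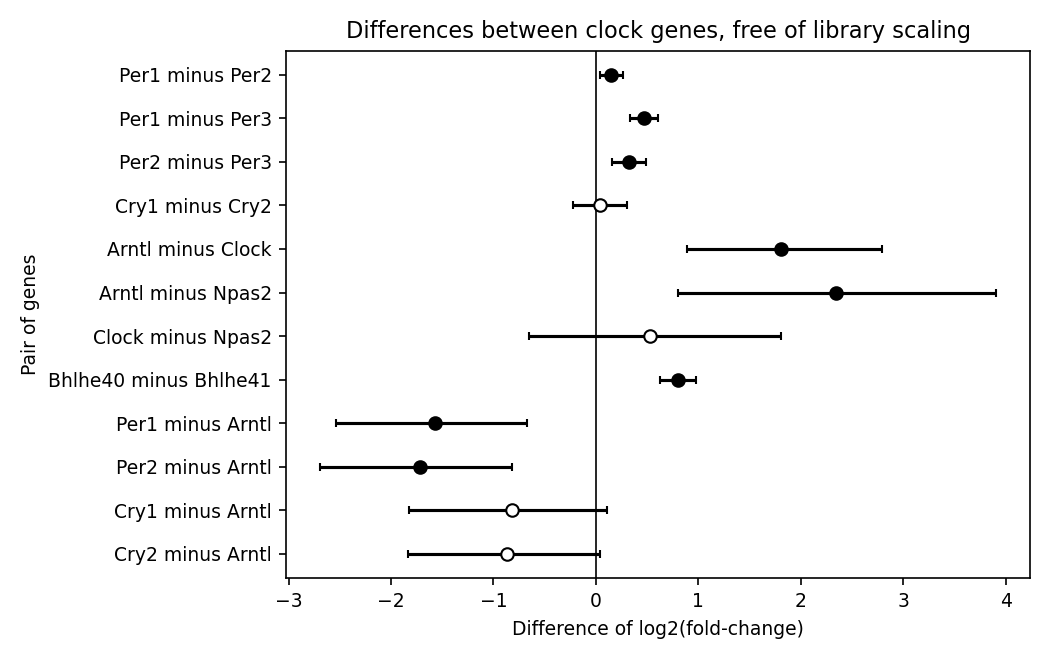
Difference of log2(fold-change) between the genes of 12 pairs, with exact conditional 95% intervals for counting error as bars. Filled points mark the 8 pairs whose interval excludes 0; Cry1 and Cry2 lie closest together, at 0.040.

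Against all 14829 genes with at least 10 reads, a filter that all 10 members passed, the counts were as follows. A log2(fold-change) above 1 was reached by 1 member, Arntl, compared with 5.54% of all genes. A value below -1 was reached by 0 members, compared with 5.86%. More than 1.5-fold higher were Arntl, Bhlhe40 and Cry1, 3 of 10, compared with 11.9% of genes. More than 1.5-fold lower were Per3 and Npas2, 2 of 10, compared with 13.1%. Cry1 and Per3 lay close to this limit: Cry1 fell short of it with total-count (0.41), upper-quartile (0.58) and smooth muscle scaling (0.39) and with the length trend removed (0.51), and Per3 with the length trend removed (-0.48) and with FPKM and a pseudocount of 1 (-0.57). The counting interval lay above 0 for 5 members and below 0 for 4, compared with 25.0% and 20.3% of all genes. The fifth of the members above 0 was Bhlhe41, whose interval included 0 under the 4 other scalings, which left 4 of 10 above 0. Many genes with few reads pass these limits. Among the 10738 genes with at least 100 reads, which left out Arntl and Npas2, 8.62% were more than 1.5-fold higher (2 of 8 members, Bhlhe40 and Cry1) and 5.69% more than 1.5-fold lower (1 of 8, Per3). In that set 3.06% of genes were above 1 and 0.81% below -1, with 0 members in either class. The interval lay above 0 for 4 of 8 members and 31.3% of those genes, and below 0 for 4 of 8 members and 22.8%. Bhlhe41 was among the 4 above 0 here too, and it dropped out under the 4 other scalings. Bhlhe40 lay above 96.7% of them in log2(fold-change). The members went both ways, with 5 higher and 5 lower of 10, compared with 49.6% and 50.4% of all genes, and 4 higher and 4 lower of the 8 with at least 100 reads, compared with 52.6% and 47.4%. With total-count and smooth muscle scaling 4 of 10 were higher and 6 lower, as Bhlhe41 turned. The median of all genes was then -0.21 and -0.23. The median log2(fold-change) of the 10 members was 0.022, compared with -0.0047 for all genes. Their median absolute value was 0.59, compared with 0.31 for all genes. For the 8 members with at least 100 reads it was 0.47, compared with 0.25 for all genes with that many reads.

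**Figure D5:**
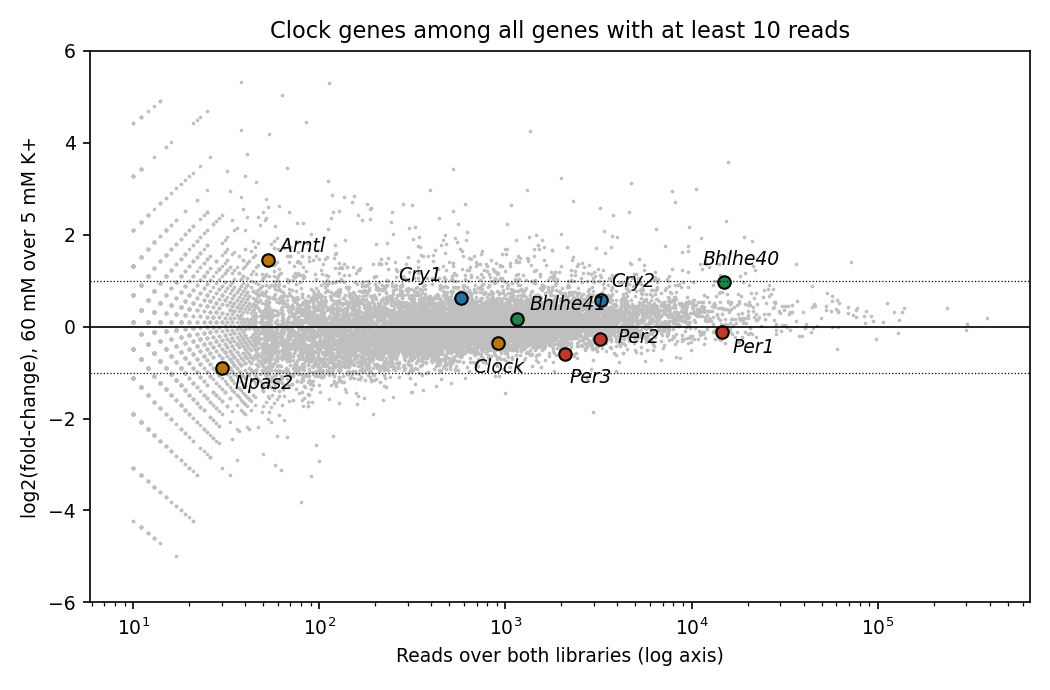
log2(fold-change) against the reads of both libraries together (log axis) for all genes with at least 10 reads (gray dots) and the 10 clock genes (colored by family); dotted lines mark -1 and 1, and 1 gene lies outside the axis. Arntl and Npas2 lie where few reads spread the values of all genes, and Bhlhe40 lies just below the upper dotted line.

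In the other arms of the clock, Nr1d1, Nr1d2, Dbp and Nfil3 differed most between the libraries. Nr1d1, which encodes REV-ERB alpha, had 2361 control and 606 depolarized reads. Its log2(fold-change) of -1.86 lay below that of every member, and the interval of the difference excluded 0 for 9 of 10 members, all but Npas2. Nr1d2, for REV-ERB beta, had 2621 and 1443 reads, a log2(fold-change) of -0.76 (-0.85 to -0.67). Rora, for an activator at the same elements, stood at 0.28 (0.11 to 0.45) and Ciart, an E-box target and repressor, at 0.23, and Rorb had 0 reads in both libraries. With total-count scaling the intervals of both Rora (-0.095 to 0.24) and Ciart (-0.14 to 0.19) included 0. Of these 5 genes, 4 had at least 10 reads, 2 higher and 2 lower, with 0 above 1 and 1 below -1. Of all genes, 49.6% were higher, 50.4% lower, 5.54% above 1 and 5.86% below -1. The median log2(fold-change) of the list was -0.26. Of the members with a RORE core, Arntl (15 and 38 reads) was higher in the library where both REV-ERB genes were lower. Per1 (-0.12) and Clock (-0.37), which hold this core too, were lower in that library. Whether these differences are linked was not tested.

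Of the D-box factors, the activator gene Dbp had 1900 and 828 reads, a log2(fold-change) of -1.10 (-1.22 to -0.98), and Nfil3, the gene of their antagonist, had 632 and 1673 reads, 1.51 (1.37 to 1.64). Tef stood at -0.27 (-0.33 to -0.21) and Hlf at -0.15, with an interval of -0.37 to 0.07. With total-count scaling (-0.58 to -0.14) and smooth muscle scaling (-0.60 to -0.16) the interval of Hlf lay below 0. The group of 4 had a median of -0.21. Per3, the gene with 2 D-box copies, had a log2(fold-change) higher than that of Dbp by 0.50 (0.32 to 0.68); no link was tested.

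A list of 14 genes for modifiers of clock proteins and associated factors had 0 members past 1 in either direction. Of all genes, 5.54% lay above 1 and 5.86% below -1. The median log2(fold-change) of the list was 0.19, which turned to -0.016 with total-count scaling. Csnk1d, for the casein kinase that phosphorylates PER proteins, was the highest at 0.79 (0.71 to 0.86). Of 8 clock-controlled genes, 4 were higher and 4 lower, compared with 49.6% and 50.4% of all genes. Por at 1.13 was the only value past 1, and the median of 0.12 turned to -0.086 with total-count scaling.

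Genes that respond to stimuli known to act on Per1, Per2 or Bhlhe40 were read beside them. Of all genes with at least 10 reads, 49.6% were higher, 5.54% lay above 1 and 5.86% below -1. Of 14 early targets of CREB and Ca2+, 13 were higher with 60 mM K+ and 4 passed 1 (Pde4b, Ptgs2, Gem and Arc), with a median of 0.84. Within this list Fos had 30685 reads and Nr4a1 44003 reads already in control arteries. Per1, with a log2(fold-change) of -0.12, lay below the lowest value on that list, -0.088 for Nr4a2, with overlapping intervals. Of 9 glucocorticoid-responsive genes, 5 had a counting interval above 0 and 4 below 0, compared with 25.0% and 20.3% of all genes. Among genes with at least 100 reads these shares were 31.3% and 22.8%. The values of the list ran from -0.75 to 0.87, so 0 passed 1 in either direction, and the median was 0.17. Of 9 heat shock genes, 7 passed 1 (Hspa1a, Hspa1b, Hsph1, Dnajb1, Hspe1, Hspb1 and Bag3), with a median of 1.36. Of 10 hypoxia genes, 3 passed 1 (Slc2a1, Hk2 and Egln3), with a median of 0.57. Bhlhe40 at 0.97 lay above the medians of the CREB and hypoxia lists and below that of the heat shock list.

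The tissue label was checked with markers, to be read beside the same shares of all genes. Smooth muscle genes, Myh11 and Acta2 foremost, summed to 30708 FPKM in the control and 31207 in the depolarized library, 0 of 10 passed 1, and their median log2(fold-change) was 0.23. Of 8 endothelial genes, 6 were higher and 2 lower, with a median of 0.26 and Kdr as the only one past -1 (-1.10); the summed levels were 1405 and 1640 FPKM. Of 6 fibroblast genes 5 were lower, with a median of -0.18 and sums of 2364 and 1880 FPKM. Macrophage genes had a median of -0.43 at sums of 29.9 and 20.4 FPKM. Schwann cell genes summed to 104 and 78.4 FPKM with Th at 0 reads, red blood cell genes (3 of 5 matched) to 74.1 and 39.1, and intestinal genes to 23.9 and 13.8 with Fabp2, Cdx1 and Epcam at 0 reads. Of 5 adipocyte genes with at least 10 reads, 4 were lower and 1 higher, with a median of -0.90. Plin1 stood at -2.39, Adipoq at -1.04 and Lep, with 1 and 9 reads, at 3.27. The sums of adipocyte genes were 68.5 and 44.6 FPKM. Pancreatic genes were higher in 7 of 7 with at least 10 reads, from 10.9 to 42.8 FPKM in sum, with Pnlip, Cela2a, Cela3b, Ctrb1, Cpa1 and Try4 past 1 and Prss1 at 0 reads. Lymphocyte genes had 8 reads in all in each library. The part of these shifts in the clock gene differences was not tested.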

How the data were processed

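RNA was extracted from mesenteric arteries, and poly-A libraries (NEBNext Ultra) were sequenced commercially. The authors used TopHat2 for alignment to mm9. What they deposited are unnormalized read counts for each gene. The submitters' processing notes list TopHat2 2.0.12, HTSeq 0.6.1, edgeR 3.0.8 and the builds mm8 and mm9, without roles; the gene annotation is not given in the sources used here. The FPKM values the authors deposited carry total-count scaling: counts over FPKM differed between libraries by 1.08 for every gene with at least 1000 reads.

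Symbols were taken from GENCODE vM1 (NCBIM37), which holds 32601 of 55573 listed identifiers, and then from RefSeq. TMM factors were computed on the counts with edgeR 4.0.16 in R 4.3.3. A count of 0 was set to 0.5, and genes with fewer than 10 reads over both libraries were left out of the background. Without replicates the edgeR quasi-likelihood test could not be run, and DEGSeq, the test named in the study's methods, was not used, since it would compare 2 libraries. Intervals were computed with scipy 1.17.1 and checked on simulated counts. Alternatives were total-count, upper-quartile, median-of-ratios (DESeq2 1.42.0) and smooth muscle scaling, other read minimums, FPKM with pseudocounts of 0.1 and 1, removal of the length trend (lowess, fraction 0.3), other fold thresholds and a wider promoter window. All 10 members, 8 further clock genes and list genes past 1 are named; no genes of like pattern were sought, because 2 libraries give 1 difference per gene. The members and lists were chosen with earlier results of these data known. A gene of the REV-ERB and ROR list is not reported here, and the counts and median of that list were computed without it.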

Additional observations from a re-analysis of the deposited data

How the results depend on the processing

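No paired analysis was possible because there was a single library at each K+ concentration. With total-count scaling every log2(fold-change) was lower by 0.21, and with smooth muscle genes setting the scale by 0.23. Bhlhe41 then turned to -0.040 and -0.059, Npas2 became the 1 member below -1, and the median of the members became -0.19 and -0.21. Under these scalings, in the same order, the medians became -0.47 and -0.49 for the REV-ERB and ROR genes, -0.42 and -0.44 for the D-box factors, -0.016 and -0.035 for the modifiers and -0.086 and -0.11 for the clock-controlled genes, of which 0 stayed above 1. Upper-quartile and median-of-ratios scaling shifted every value by -0.043 and -0.012. Of 70 values of single members that a setting could move, 54 stayed within their counting interval, 14 left it and 2 reversed.

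The 1 member above 1, Arntl, rests on few reads: 0 members passed with FPKM and a pseudocount of 1, with a minimum of 100 reads, or with the limit set on the nearest end of the interval. At 1.5-fold, 3 members were higher and 2 lower, with 2 to 3 higher and 0 to 3 lower over the 7 other scalings, pseudocounts and length setting: Cry1, Per3 and Npas2 lost this call in some, and Cry2 and Clock gained it in 1 each. Of 96 pair differences that a setting could move, 95 stayed within their interval, and Per1 minus Dbp moved to 1.12 with the length trend removed. A longer window ran from 1000 bases before to 200 after the start, on NCBIM37. There 5 of 8 members had the short CRE motif, 6 the RORE core and 4 the E-box. The shares were 59.9%, 67.1% and 29.9% of 16273 genes, those of the promoter set whose symbol was also in GENCODE vM1. The gene set and the annotated starts thus differed as well as the window. Depth limits Arntl and Npas2 most.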
